A study of Homo sapiens with 24 samples.

Results

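The 10 mRNAs described here are SEMA3C, CCAR1, UFL1, TASOR2, MORC3, FNDC3A, TOPORS, SCAF11, U2SURP and RECQL, out of 20345 genes in the deposited count table. They were selected on their polysomal relative to total RNA, which rose with hydroxyurea (HU) in LSM14A-depleted cells when 1 untreated culture was left out of the comparison, so the values of that contrast are given below as description, without a test. All 10 were matched by their Ensembl gene IDs to the Gencode annotation of hg19, and all 10 passed the filter on low counts, with 144 to 7850 reads per gene and library.

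An mRNA that carries many ribosomes sediments in the heavy part of a sucrose gradient, and the ratio of its level there to its level in total RNA, the translation efficiency (TE), is a common measure of how strongly it is loaded with ribosomes. LSM14A is the human ortholog of yeast Scd6, an RNA-binding protein with an LSm domain and RGG motifs that is found in P-bodies, cytoplasmic granules of untranslated mRNA. P-body mRNAs are known to be rich in A and U and to use codons that end in A or U, and codon use of this kind often goes with low protein output, which makes base composition a natural property to read beside polysome loading.

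A2058 cells, an established line from a human melanoma, received control siRNA (siCTRL) or siRNA against LSM14A (siLSM14A, 20 nM of each siRNA by the methods), and were either left untreated (NT) or given 10 mM HU, which blocks the supply of deoxynucleotides for DNA replication, for 2 h. The 4 conditions siCTRL NT, siCTRL HU, siLSM14A NT and siLSM14A HU had 3 cultures each, and each culture was sequenced once as total RNA and once as RNA from heavy polysomes, 24 libraries in all. All cultures were exposed to cycloheximide before collection, and the cells are of 1 line. The labels do not say what the replicate numbers share, so the p-values measure the spread between these cultures, which may be technical.

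LSM14A itself was at 84.3 ± 2.33 CPM (counts scaled to the library size, SD, n = 3) in total RNA of siCTRL NT cells and at 7.52 ± 0.708 in siLSM14A NT cells. With HU the values were 85.9 ± 5.08 and 6.81 ± 0.794. Libraries held 24789280 to 44897501 counts. The melanocytic markers SOX10 (612 to 749 CPM), DCT, PMEL, TYR, S100B and MITF were present in every total RNA library and MLANA was low (6.17 to 11.1 CPM). AXL (180 to 228 CPM) and NGFR (43 to 62.1 CPM), markers of dedifferentiated melanoma, were present as well. Of the keratinocyte markers KRT5 was at 0 and KRT14 at 1.11 to 3.19 CPM, and EPCAM and PTPRC stayed below 1 CPM. Replicates differed far more in polysomal than in total RNA, with a chi-square per gene of 38.4 to 125 between polysomal replicates and 6.20 to 20.4 between total RNA replicates. No pair of replicates differed by less than sampling noise.

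The rule did not use base composition, but the TE change it ranked went with exon GC content. Its median was 0.38 in the decile of genes with the lowest GC and −0.25 in the highest. The 10 mRNAs shared a low GC content. Their exons held 36.1 to 42.6% G or C, against a median of 47.7% over 12855 tested genes, and 5 of the 10 fell in the lowest decile of genes, 3 in decile 2 and 2 in decile 3. The third codon position was G or C in 29.3% (SCAF11 and U2SURP) to 45.1% (SEMA3C) of codons, against a median of 59% over all genes. The 3′ UTRs were lower still, at 26.7% (TOPORS) to 34.2% (SCAF11) against 42.1%. Coding sequences ran from 1947 (RECQL) to 7290 bases (TASOR2), all above the median of 1419, whereas full exon length was above its median for 7 of the 10. On hg19, with the strand in brackets, the genes lie as follows, SEMA3C at chr7:80371854-80551675 (−), CCAR1 at chr10:70480769-70552134 (+), UFL1 at chr6:96969471-97003152 (+), TASOR2 at chr10:5726694-5805742 (+), MORC3 at chr21:37692487-37758446 (+). The others are FNDC3A at chr13:49550048-49783915 (+), TOPORS at chr9:32540542-32552584 (−), SCAF11 at chr12:46312914-46385903 (−), U2SURP at chr3:142683339-142779567 (+) and RECQL at chr12:21621844-21654603 (−).

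To show what this composition looks like, the 10 codons nearest the middle of the coding sequence are printed for the members with the lowest share of G or C at the third codon position, SCAF11 and U2SURP, and for those with the highest, TASOR2 and SEMA3C. The windows were set by position, from the hg19 genome in the sense of the mRNA, and capitals mark A or T at the third codon position.
SCAF11: gaccaAaaTgaAtcTgaAgtTgaAccAtcT
U2SURP: ccgtacttgcaTggAatgtcAgaAgagcaA
TASOR2: gcctcTaccaccttgggAaggcagtgTtcA
SEMA3C: ggcagAatTccAtaTccTcgcccTggAacT
They cover chr12:46321276-46321305 (− strand, SCAF11), chr3:142747406-142747435 (+, U2SURP), chr10:5789015-5789044 (+, TASOR2) and chr7:80427408-80427437 (−, SEMA3C), each inside 1 coding exon. The third position was A or T in 9 of 10 codons of the SCAF11 window, 5 of 10 for U2SURP, 4 of 10 for TASOR2 and 8 of 10 for SEMA3C, so single windows scatter around the whole-gene shares.

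SEMA3C encodes a secreted class 3 semaphorin that signals through neuropilins and plexins. Its total RNA was steady over all cultures, at 107, 115 and 125 CPM in siLSM14A NT cells and 117, 113 and 115 CPM in siLSM14A HU cells. Its polysomal RNA was 78.9, 23.5 and 24.5 CPM in the siLSM14A NT cultures 1, 2 and 3, and 65.1, 57.3 and 62.3 CPM in siLSM14A HU cells. Culture 1 of siLSM14A NT was thus above each HU culture and cultures 2 and 3 were below each of them, and the groups overlapped. In siCTRL cells the polysomal levels were 27.6, 56.7 and 109.5 CPM without HU and 43.5, 25.1 and 74.5 CPM with HU. Here culture 3 of siCTRL NT stood highest of all 12.

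CCAR1, a coactivator that links nuclear receptors and β-catenin to transcription, showed the same order in siLSM14A cells. Its polysomal RNA was 70.9, 27.1 and 27.1 CPM without HU and 66.3, 59.4 and 60.3 CPM with HU, while its total RNA was 97.4, 98.2 and 110.2 CPM and 97.0, 99.7 and 107 CPM. In siCTRL cells its polysomal levels were 17.3, 33.7 and 86.3 CPM without HU and 37.5, 39.6 and 51.8 CPM with HU. The siCTRL NT cultures therefore enclosed the siCTRL HU cultures on both sides.

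TOPORS, a RING-finger protein that acts as a ubiquitin and SUMO ligase, had 22.8, 9.64 and 10.4 CPM in polysomal RNA of siLSM14A NT cells and 22.9, 19.1 and 26.3 CPM with HU. Its total RNA stayed between 37.9 and 47.8 CPM in these 6 cultures. In the siCTRL cultures polysomal TOPORS was at 8.23, 15.3 and 29.9 CPM without HU and at 12.5, 9.42 and 18.1 CPM with HU. As for CCAR1, the untreated siCTRL cultures spanned a wider range than the treated ones and enclosed them.

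RECQL, a DNA helicase of the RecQ family, was the most strongly loaded of the 10 relative to its own total RNA. Polysomal RNA was 83.4, 31.2 and 38.3 CPM in siLSM14A NT cells and 68.0, 60.5 and 63.7 CPM in siLSM14A HU cells, beside total RNA of 63.7, 67.2 and 75.4 CPM and 61.9, 61.9 and 66.5 CPM. Its log2 TE was 0.39, −1.11 and −0.98 without HU and 0.13, −0.03 and −0.06 with HU. RECQL was the member with a TE above 0 in culture 1 of both siLSM14A groups, and in culture 3 of siCTRL NT (0.45) it was joined by SCAF11 (0.10).

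The other members are given as log2 TE, calculated per culture from CPM with a prior count of 2. Each library is scaled by TMM, which takes the bulk of mRNAs as unchanged, so a log2 TE of 0 is that reference. The median over all genes was −0.08 to −0.02 per culture, and a change common to all mRNAs would not show. UFL1, the ligase that attaches the ubiquitin-like modifier UFM1 to its targets, had −0.48, −1.84 and −1.92 in siLSM14A NT cells and −0.49, −0.56 and −0.69 in siLSM14A HU cells. TASOR2, a paralog of the TASOR scaffold of the HUSH silencing complex, had −0.90, −2.34 and −2.53 without HU and −1.11, −1.38 and −1.12 with HU. MORC3, an ATPase of the MORC family that is found in PML nuclear bodies, had −0.67, −2.28 and −2.02 without HU and −0.73, −0.82 and −0.79 with HU. In each of these, cultures 2 and 3 of siLSM14A NT lay below all HU cultures and culture 1 did not. FNDC3A, a protein built of fibronectin type III repeats, had −0.40, −1.75 and −1.73 without HU and −0.59, −0.77 and −0.50 with HU. The splicing-related proteins SCAF11, which carries SR-like repeats, and U2SURP, which associates with the U2 snRNP, had −0.26, −1.33 and −1.37, and −0.11, −1.43 and −1.88, without HU. With HU SCAF11 had −0.22, −0.39 and −0.36 and U2SURP had −0.35, −0.65 and −0.49. The same split of the untreated cultures was present in all 10 members, which the rule favours for cultures 2 and 3.

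In siCTRL cells these 6 mRNAs and RECQL stood highest in siCTRL NT 3, as SEMA3C and CCAR1 did, while the order of the other cultures varied. Log2 TE of UFL1 was −2.36, −0.83 and −0.18 without HU and −1.24, −1.53 and −0.95 with HU. That of TASOR2 was −2.38, −1.66 and −0.56 without HU and −1.87, −2.25 and −0.97 with HU. MORC3 had −1.85, −1.03 and −0.20 without HU and −1.36, −1.60 and −0.94 with HU. The untreated cultures thus ran from the lowest or nearly lowest value to the highest, with the treated cultures between them. FNDC3A had −1.43, −0.87 and −0.20 against −1.15, −1.76 and −0.73, and is the member for which siCTRL HU 2 fell below siCTRL NT 1. SCAF11 had −1.55, −1.21 and 0.10 against −0.89, −0.74 and −0.38, and U2SURP had −1.90, −1.16 and −0.15 against −1.05, −1.23 and −0.91. RECQL had −1.20, −0.48 and 0.45 against −0.48, −0.67 and −0.39. For all of these, siCTRL NT 3 was the highest siCTRL culture.

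**Figure D1:**
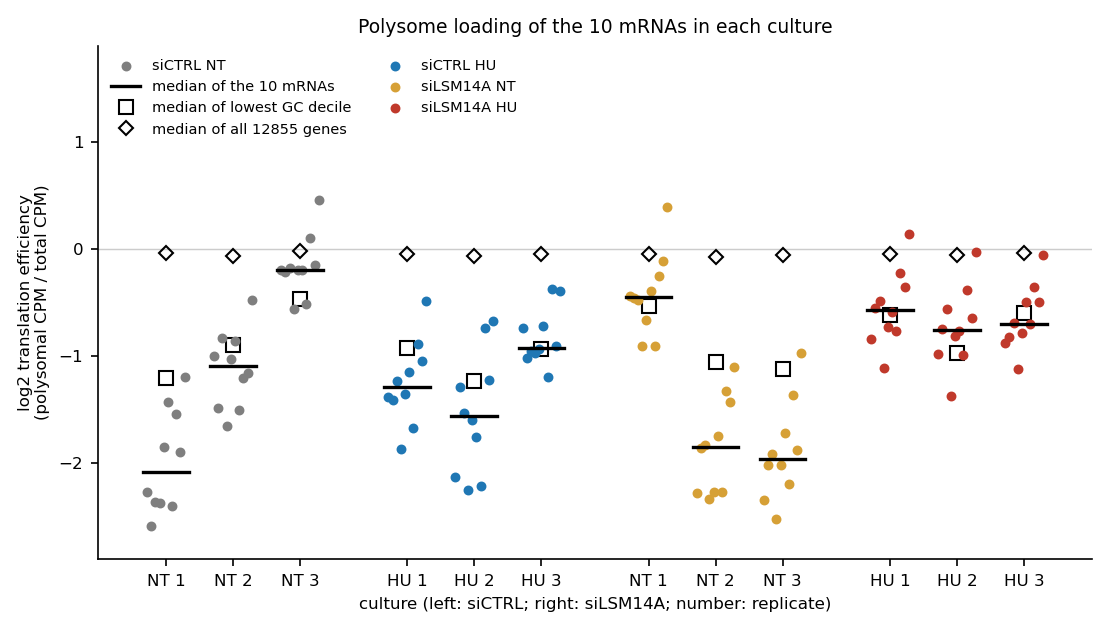
Log2 TE (polysomal over total CPM, y axis) of the 10 mRNAs in each of the 12 cultures (points, drawn in the order of the member list), with the median of the 10 (bar), the median of the lowest exon GC decile (square) and the median of all genes (diamond). The members lie low together in siCTRL NT 1 and in siLSM14A NT 2 and 3, with medians of −2.08, −1.85 and −1.97, and high together in siCTRL NT 3 and siLSM14A NT 1, with medians of −0.20 and −0.45.

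The split was a property of the polysomal libraries. Over the 12 cultures the highest and lowest level of a member differed by 1.51 (SCAF11) to 2.32 (CCAR1) in log2 polysomal CPM and by 0.18 to 0.40 in log2 total CPM. The siLSM14A cultures in these ranges were used by the rule. Over the 6 siCTRL cultures, which were not, the range of a member was 1.51 (SCAF11) to 2.32 (CCAR1) in polysomal RNA and 0.13 (TOPORS) to 0.32 (UFL1) in total RNA. For the 8994 genes with a mean above 10 CPM over the 24 libraries, as all members have, the median range over the siCTRL cultures was 0.59 in polysomal RNA, with a 95th percentile of 1.33, and 0.21 in total RNA. All 10 members were above that percentile in polysomal RNA of siCTRL cells. Among all 12855 tested genes the median polysomal range over the siCTRL cultures was 0.66, and in the lowest exon GC decile it was 0.99. A wider range was thus shared by low-GC genes as a group. Culture 3 of siCTRL NT gave the highest polysomal level of all 10 members, and the lowest came from siCTRL NT 1 (5 members), siLSM14A NT 2 (3) or siCTRL HU 2 (2). In bulk RNA, loading of fewer copies of an mRNA and loading in fewer cells cannot be told apart.

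**Figure D2:**
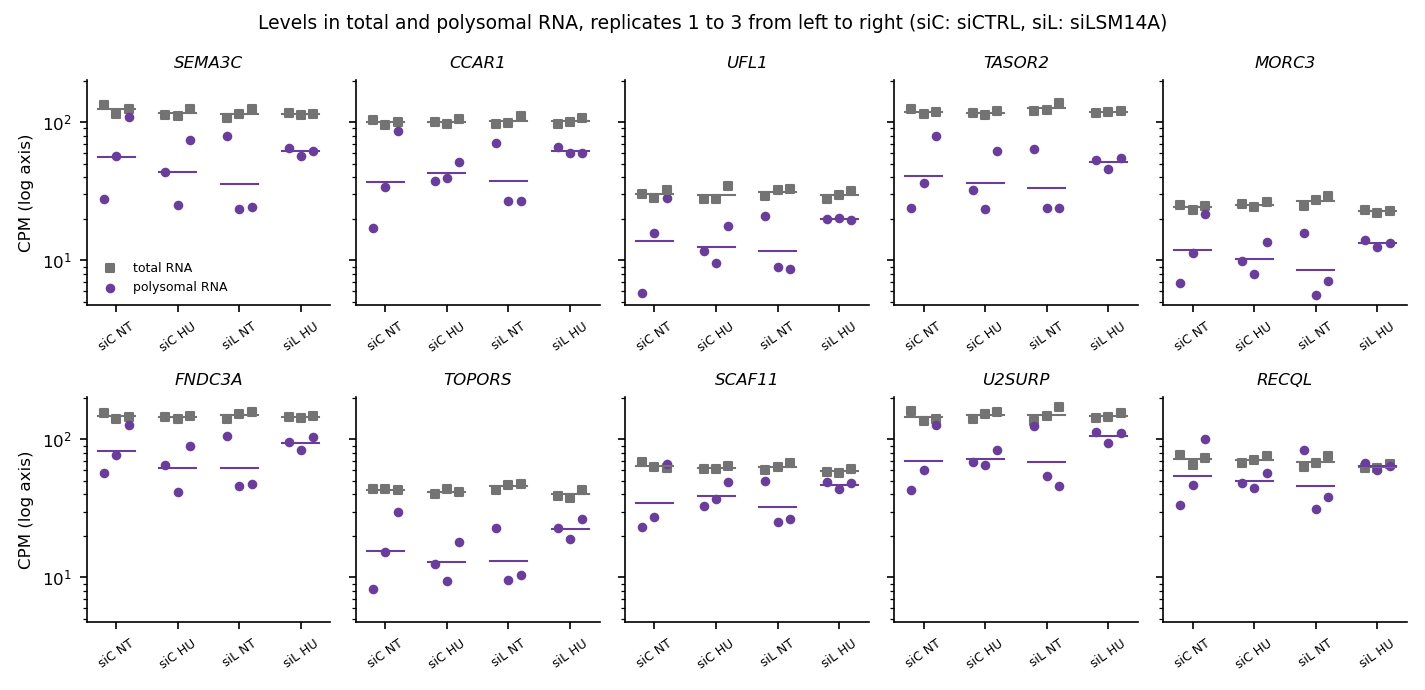
CPM (log axis) of each of the 10 mRNAs in total RNA (grey squares) and polysomal RNA (violet circles), with 3 cultures per condition in the order of the replicate number and their geometric mean (line). Total RNA is nearly flat in every panel, with ranges of 0.18 to 0.40 on the log2 scale, and polysomal RNA of SEMA3C runs from 23.5 to 109.5 CPM.

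As a mean of the cultures, log2 TE of the members was higher in siLSM14A HU than in siLSM14A NT cells by 0.58 (RECQL) to 0.97 (TOPORS). The difference was 0.47 to 0.78 in log2 polysomal CPM and −0.25 to −0.01 in log2 total CPM. Fitted on the counts, which gives cultures with high counts more weight, the change was 0.44 (RECQL) to 0.86 (TOPORS) with a median of 0.57, against a median of 0.01 over 12660 genes. Because the rule used these libraries, no test is attached. At an adjusted p under 0.05, 0 of 12660 genes were called by edgeR with all cultures (0%) and 179 had an unadjusted p under 0.05 (1.41%). DESeq2 also called 0. The groups overlapped for all 10 members, while 1.94% of all genes had every HU culture above every NT culture.

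Without culture 1 of siLSM14A NT, 16 of 12753 genes were called higher (0.125%) and 0 lower, and the 10 members are among these 16 by the rule. Their changes were then 1.03 (SCAF11) to 1.42 (TOPORS), with a median of 1.24. RECQL, the last member by adjusted p (0.0408), stood next to LIG4 (log2 change 1.47, adjusted p = 0.0373, edgeR), the DNA ligase of non-homologous end joining, which passed the threshold and is no member. RBM26, ANKRD50, ATAD2 and ANLN also passed, at adjusted p of 0.0427 to 0.0447, and the first genes outside were CDC5L (1.08) and DIAPH3 (0.98), both at 0.0514. The 16 genes called and these 2 had a low exon GC content, between the 2.56th and the 29th percentile.

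Which culture was left out set the size of the change. Without siLSM14A NT 2 the median of the 10 was 0.36 and without siLSM14A NT 3 it was 0.31, compared with 1.24 without siLSM14A NT 1. Leaving out siLSM14A HU 1, 2 or 3 gave 0.52, 0.63 and 0.57. The siLSM14A NT cultures 2 and 3 were below every siLSM14A HU culture for 10 of 10 members. The rule selected for this order, so that count is no evidence about the members. Culture 1 was above every siLSM14A HU culture for 8 of 10, and for the same number the 3 HU cultures lay inside the NT range. The share of all genes with these orders is not given. The SD of log2 TE over the 3 cultures was 0.04 (MORC3) to 0.15 (TASOR2) with HU and 0.63 (SCAF11) to 1.08 (SEMA3C) without. The rule favoured mRNAs with a small spread with HU and left out culture 1 of siLSM14A NT, so these SDs are no evidence about the members either.

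In siCTRL cells, whose libraries the rule did not use, the same treatment gave the opposite sign in most members and no call. TE with HU was lower for 9 of 10 and higher for SCAF11 alone, from −0.39 (FNDC3A, SE 0.367) to 0.08 (SCAF11, SE 0.407), with a median of −0.30 against −0.01 over 12693 genes. For SEMA3C the change was −0.34 (SE 0.553, adjusted p = 0.956 by edgeR's quasi-likelihood test) and for CCAR1 −0.10 (SE 0.528, adjusted p = 0.982). The smallest unadjusted p of a member was 0.306, for FNDC3A. None of the 10 was called, as was none of the 12693 genes (0%), of which 293 had an unadjusted p under 0.05 (2.31%), and DESeq2 called 0 as well. With standard errors of 0.367 to 0.553, a change of the size fitted in siLSM14A cells with all cultures (median 0.57) was not detectable in siCTRL cells. Because the rule used the siLSM14A libraries, the difference between the responses of the siRNAs was not tested.

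The sign in siCTRL cells rested on culture 3 of siCTRL NT. Without it the median of the 10 was 0.29 and 9 of 10 were higher with HU, CCAR1 by 0.73. Without siCTRL NT 1 the median was −0.63 with 0 of 10 higher, and without siCTRL NT 2, siCTRL HU 1, siCTRL HU 2 and siCTRL HU 3 it was −0.34, −0.28, −0.10 and −0.55. Culture 3 of siCTRL NT was above every siCTRL HU culture for 10 of 10 members and culture 1 below every one for 9 of 10. For these 9 the 3 HU cultures lay inside the NT range, as was the case in siLSM14A cells for 8. How many of all genes had these orders is not given, so the counts do not set the members apart from other genes. The median log2 TE of the lowest exon GC decile was also higher in siCTRL NT 3 (−0.47) than in siCTRL HU 1, 2 and 3 (−0.93, −1.24 and −0.94). In siCTRL NT 1 that median was −1.21, below siCTRL HU 1 and 3 but not below siCTRL HU 2. With the replicate number as a block 2 members were higher and the median was −0.21, again with 0 genes called.

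**Figure D3:**
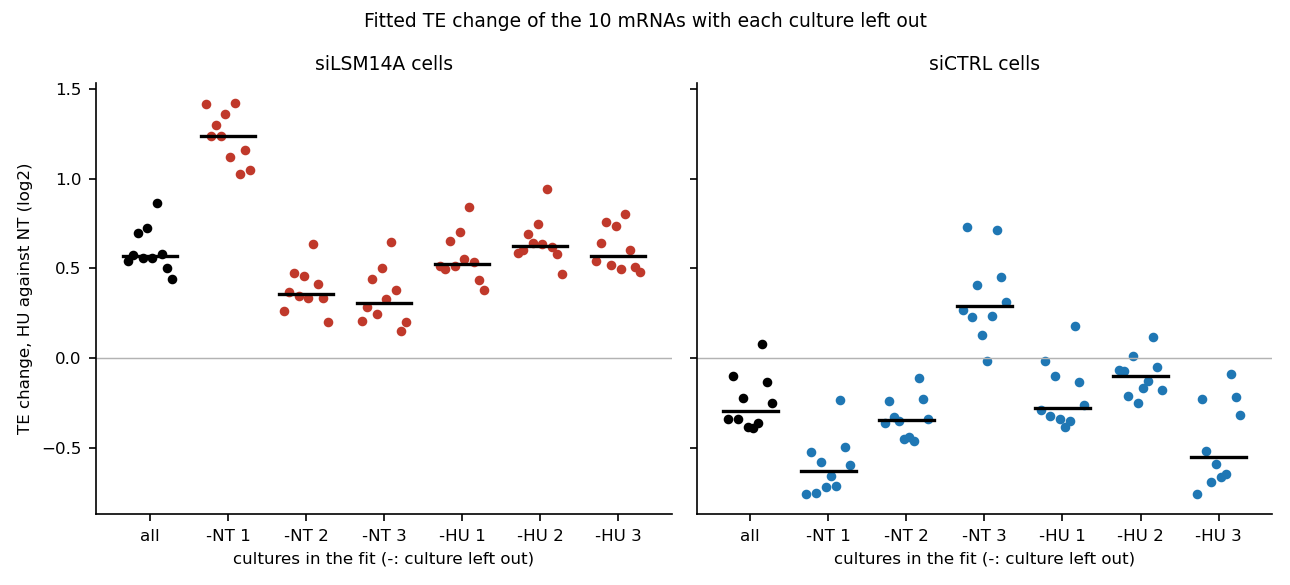
Fitted TE change with HU (log2, y axis) of the 10 mRNAs (points, with their median as a bar) when all 6 cultures of an siRNA are used and when each is left out, in siLSM14A cells (left) and siCTRL cells (right). The median moves between 0.31 and 1.24 in siLSM14A cells and between −0.63 and 0.29 in siCTRL cells, where it changes sign without siCTRL NT 3.

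By fraction, total RNA of the members in siCTRL cells differed by −0.09 (SEMA3C) to 0.06 (MORC3) between HU and NT, in log2, and no member was called (0% of 12506 genes by edgeR, 180 at an unadjusted p under 0.05, 1.44%). With the replicate block 15 genes were called in total RNA, none of them a member. In polysomal RNA the changes were −0.43 (SEMA3C) to 0.03 (SCAF11), with no member called (0% of 12315 genes, 259 at an unadjusted p under 0.05, 2.1%) and 1 other gene called with the block. The standard errors of the members were 0.0548 to 0.0924 in total RNA and 0.294 to 0.423 in polysomal RNA, so the polysomal libraries set the error of the TE change.

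Between the siRNAs, TE of the members was lower in siLSM14A NT than in siCTRL NT cells, by 0.01 (CCAR1) to 0.63 (MORC3) on the log2 scale as a mean of the cultures, and higher in siLSM14A HU than in siCTRL HU cells, by 0.35 (SCAF11) to 0.88 (TOPORS). Both differences use libraries of the rule and carry no test. The mean over cultures of the members' median was −1.13 in siCTRL NT, −1.26 in siCTRL HU, −1.42 in siLSM14A NT and −0.68 in siLSM14A HU. Ordered by these means, the cultures of neighbouring conditions overlapped, so that neighbours did not differ beyond their spread. The 3 siLSM14A HU medians (−0.57, −0.76 and −0.70) were above the 3 siCTRL HU medians (−1.30, −1.56 and −0.92). The rule favoured mRNAs that were high in siLSM14A HU cells, so this separation is description only and carries no test.

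The members were weakly loaded in siCTRL cells, a measure that does not use the siLSM14A libraries. With HU all 10 were lower in polysomal than in total RNA at an adjusted p under 0.05 (37.4% of 12479 genes were called lower), from −0.50 (RECQL, SE 0.123, adjusted p = 0.00353 by edgeR) to −1.64 (TOPORS, SE 0.202), and for all 10 the fractions did not overlap (40.6% of genes). SEMA3C was at −1.27 (SE 0.295) and CCAR1 at −1.22 (SE 0.134, adjusted p = 1.84e-05, the smallest of the 10). Without HU all 10 were below 0, from −0.26 (RECQL) to −1.36 (TASOR2, SE 0.37, adjusted p = 0.0116), and TASOR2, TOPORS, FNDC3A, U2SURP and MORC3 were called lower (32.3% of 12431 genes were). The fractions did not overlap for 7 of the 10 (36.7% of genes).

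Since polysomal and total RNA came from the same cultures, the fit with the culture number as a block applies here, and it called 9 of the 10 lower without HU, all except RECQL, and all 10 with HU. Of all genes, 33% were called lower without HU and 37.8% with HU. The count without HU followed single cultures, at 2 members without siCTRL NT 1, 0 without siCTRL NT 2 (where calls over all genes also fell, from 7927 to 3654) and 10 without siCTRL NT 3. The share of all genes called lower was 23.3%, 12.2% and 34.3% in these fits, so the 2 members without siCTRL NT 1 were near it. With HU 10 of 10 members were called lower whichever culture was left out, beside 31.2% to 36.6% of all genes.

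Low loading went with low GC content across the whole transcriptome. In siCTRL HU cells the median change from total to polysomal RNA rose from −1.03 in the decile of genes with the lowest exon GC to 0.89 in the decile with the highest, and the share of genes called lower fell from 83.7% to 0.801%. When each library's dependence on exon GC was taken out as a smooth curve, 4 members were called lower with HU (CCAR1, TASOR2, MORC3 and TOPORS), as were 29.1% of all genes. RECQL was called higher at 0.37 (27.8% of all genes were), and SCAF11 was at 0.24. Without HU, TASOR2 and TOPORS were then called lower (28.6% of all genes were) and RECQL was at 0.38. With the culture block added to that correction, 7 members were called lower (29.7% of all genes) and RECQL higher (27.4%) with HU. CCAR1, TASOR2 and TOPORS were called lower without HU (30.2% of all genes were). Except for the 7 with HU, the counts of members called lower were near these shares, and nothing is read from them. With the GC correction alone, the median of the 10 was −0.44 with HU and −0.25 without, in place of −1.21 and −0.91.

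**Figure D4:**
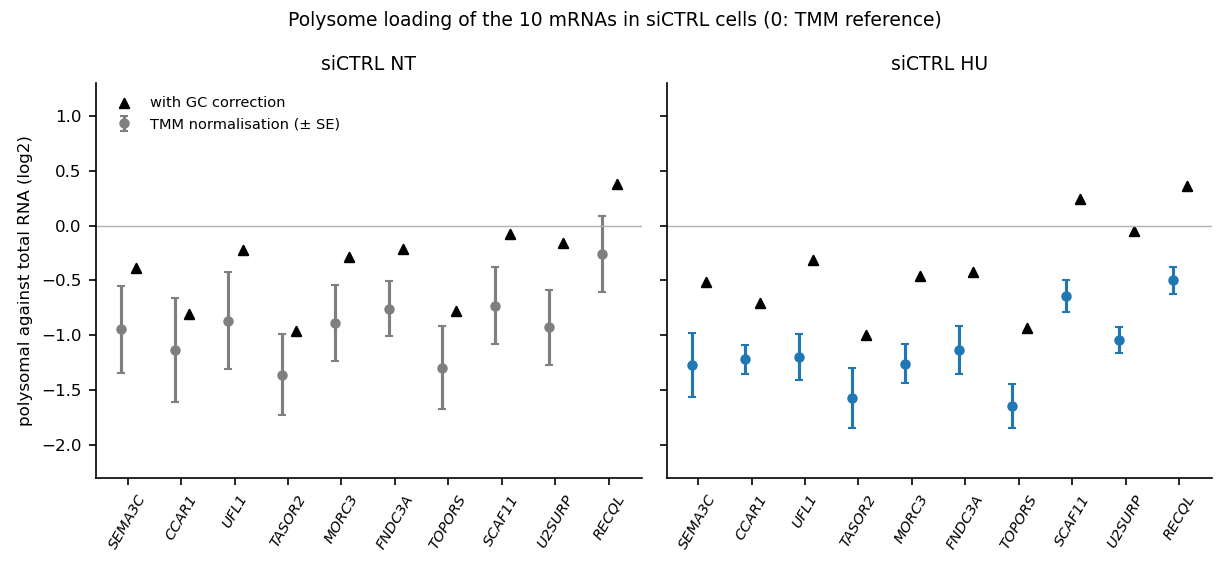
Polysomal against total RNA (log2, y axis) of the 10 mRNAs in siCTRL NT (left) and siCTRL HU cells (right), as fitted with TMM normalisation (circles with SE, 3 cultures) and after the GC correction (triangles). The circles are all below 0, from −0.26 to −1.64, and after the correction RECQL lies above 0 in both panels, at 0.38 and 0.37.

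The steepness of the GC dependence differed between cultures, and partly in step with the members. The fitted slope of log2 TE per 10 points of GC was 0.34 in both siCTRL NT 3 and siLSM14A NT 1, the cultures in which the members stood highest, and 0.79, 0.77 and 0.78 in siCTRL NT 1 and siLSM14A NT 2 and 3, where they stood lowest. The remaining cultures ranged from 0.44 (siLSM14A HU 3) to 0.87 (siCTRL HU 2, members' median −1.56). In siLSM14A HU 2 the slope was steep, at 0.73, while the members' median was high, at −0.76. The difference between the lowest and the highest GC decile ran from −0.95 in siCTRL NT 3 and siLSM14A NT 1 to −2.22 in siCTRL HU 2. In total RNA the lowest decile moved by −0.08 to 0.12 around its mean over the 12 cultures and in polysomal RNA by −0.32 to 0.43, so the shift was again in the polysomal libraries.

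In siCTRL cells the members' medians were −2.08, −1.10 and −0.20 without HU, compared with −1.21, −0.90 and −0.47 for the lowest GC decile, and −1.30, −1.56 and −0.92 with HU, compared with −0.93, −1.24 and −0.94. The members thus stood below the lowest decile in siCTRL NT 1 and above it in siCTRL NT 3. In siLSM14A cells, where the rule itself selected mRNAs that were low in siLSM14A NT 2 and 3 and higher with HU, the medians were −0.45, −1.85 and −1.97 without HU and −0.57, −0.76 and −0.70 with HU, beside −0.54, −1.06 and −1.13 and −0.62, −0.97 and −0.60 for the lowest decile. Measured from each culture's own GC curve, the median of the 10 was −0.04, −1.07 and −0.92 in siLSM14A NT and −0.13, 0.01 and −0.19 in siLSM14A HU cells, and −0.95, −0.23 and 0.19 in siCTRL NT and −0.47, −0.56 and −0.04 in siCTRL HU cells. The untreated siLSM14A cultures thus spanned 1.04 in place of 1.52 and the untreated siCTRL cultures 1.13 in place of 1.89, so the split was smaller but still present.

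**Figure D5:**
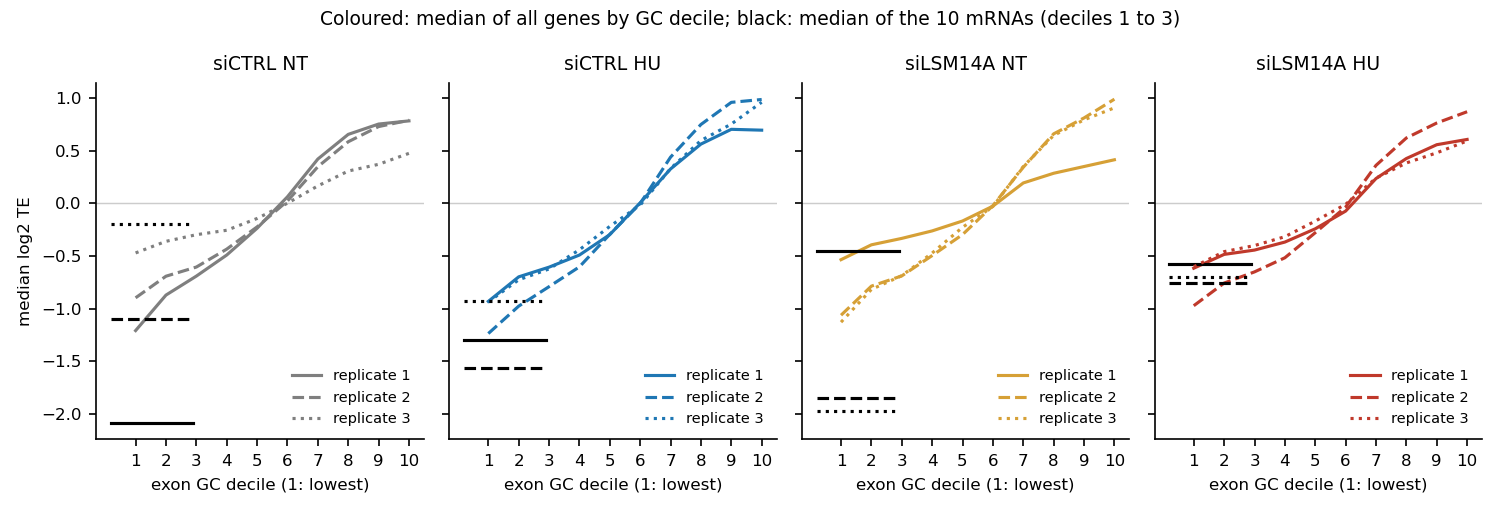
Median log2 TE of all genes (coloured lines, y axis) by decile of exon GC content (x axis, 1 is lowest) in each culture, with the median of the 10 mRNAs as black lines of the same style over the deciles that hold them. The flattest lines, siCTRL NT 3 and siLSM14A NT 1, go with the highest black lines, at −0.20 and −0.45, and in siCTRL NT 1 the black line, at −2.08, lies below the lowest decile, at −1.21.

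In the fits the GC correction changed the members' TE change in siLSM14A cells little, from a median of 0.57 to 0.53, while the lowest GC decile moved from 0.16 to 0.02. Without siLSM14A NT 1 the lowest decile stood at 0.38 and the highest at −0.25, and with the correction at 0.03 and 0.03. The members' median was then 1.02 in place of 1.24, 11 genes were called in place of 16, and 6 of the 10 members were among them. The rule chose the members for a large change in this contrast, so what remained after the correction is description only. The part of GC content in it was not tested. In siCTRL cells the correction moved the members' median from −0.30 to −0.08 with all cultures, and from 0.29 to 0.26 without siCTRL NT 3.

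Coding length separated the genes further. Among the 1572 genes in the lowest tertile of GC and the highest tertile of coding length, which include all 10 members, median TE was −0.35, −1.04 and −1.08 in siLSM14A NT cells and −0.45, −0.81 and −0.48 in siLSM14A HU cells. The 1304 genes of equally low GC but short coding sequence had −0.46, −0.58 and −0.66 and −0.53, −0.74 and −0.47. The contrast of the rule gave medians of 0.51 and 0.04 in these 2 groups, 0.23 in long genes of middle GC and −0.28 in short genes of high GC. Long, low-GC genes as a group thus shared the direction by which the members were selected, and the part of base composition and coding length in the members' change was not tested.

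Many other mRNAs followed the members over the cultures. By Pearson correlation with the members' mean log2 TE over the 12 cultures, which share the 24 libraries, the closest non-members were TRIM33 (r = 0.981), KPNB1 (0.977), ANKRD50, IFIH1 and PLEKHA5 (0.976 each). The members' own values were 0.941 to 0.980, which is partly built in. Each member is part of that mean, and the rule used siLSM14A cultures. ANKRD50 had also passed the threshold in the fit of the rule. Among the 12855 genes, 273 non-members exceeded 0.9, and 203 of them (74.4%) were in the lowest 2 GC deciles. KPNB1, the importin β that carries proteins into the nucleus, is an exception with 45.5% GC, at the 41.6th percentile.

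The partners and relatives of the members were taken from lists of their pathways. Of 78 genes in 7 lists, 74 were tested, and none was called for TE with HU in siCTRL cells (0% of all genes), in siLSM14A cells or without siLSM14A NT 1. In siCTRL cells 4 of the 74 had an unadjusted p under 0.05, as had 293 of all 12693 genes (2.31%), and nothing is read from this number. They were MORC2 (log2 change 0.60, SE 0.19, adjusted p = 0.956 by edgeR), which works with HUSH, PML (0.52), the scaffold of PML bodies, and the splicing factors CHERP (0.43) and SF3A2 (0.47). List medians in siCTRL cells were −0.15 for 7 relatives and partners of CCAR1 and FNDC3A, −0.07 for 14 SUMO ligases and PML body proteins, 0.03 for 8 genes of UFM1 conjugation, 0.04 for 7 HUSH and MORC genes, 0.06 for 10 RecQ helicases and partners, 0.16 for 10 semaphorins and receptors, and 0.19 for 18 splicing factors, against −0.01 over all genes. In siLSM14A cells without siLSM14A NT 1 the list medians were between −0.07 (UFM1 conjugation) and 0.43 (relatives and partners of CCAR1 and FNDC3A), against 0.01 over all genes.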

How the data were processed

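Total and heavy polysomal RNA of 12 A2058 cultures was sequenced as 24 stranded poly(A) libraries. After trimming, the authors mapped the reads to hg19 by STAR (2.6.1a in the submitters' processing notes) and took gene counts from STAR on Gencode genes. The deposited values are raw counts per gene without normalization, of which every sample column was used. The labels and the methods name A2058 as the cell line, while 1 legend of the paper names A375 for this comparison. The heavy pool is described in 2 ways in the methods, as a run of gradient fractions and as the heaviest fractions.

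Groups, fractions and replicate numbers were read from the labels. Of 20345 gene IDs, 19637 were in Gencode v44lift37 (hg19), with 19086 protein-coding genes. Those that passed the filter on low counts were tested, 12315 to 12693 in the main fits. For TE, edgeR 4.0.16 (R 4.3.3) fitted the fraction-by-HU interaction over the 12 libraries of an siRNA, with its quasi-likelihood test. TMM normalization, filterByExpr (minimum count 10, minimum total count 15) and Benjamini-Hochberg adjustment over all genes tested were used. The tool of the study for TE, Xtail, was not used. Total RNA, polysomal RNA and the difference of the fractions in siCTRL cells were tested separately. The fit was tested on simulated data. Exon GC came from the merged exons of a gene, and codon and UTR values from its canonical transcript. The GC correction used a loess curve (span 0.3) of log2 CPM on exon GC as an offset. Alternatives were DESeq2 1.42.0, RLE size factors, all genes, 2 other count filters, replicate and culture blocks, the GC correction, all 24 libraries in 1 fit and each culture left out.

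The members, lists and tests were chosen with earlier results of these data known. Named are the members, LSM14A, the genes around the threshold of the rule (1 of them is not reported here), the 5 non-members most correlated with the members, and, as no list gene was called, the 2 genes of each list with the smallest p in siCTRL cells, of which the 4 at an unadjusted p under 0.05 are printed. Same-numbered siCTRL HU and NT cultures deviated together, with correlations of 0.27, 0.25 and 0.19 in total and 0.25, 0.18 and 0.45 in polysomal RNA. In siLSM14A cells they did so less regularly, at −0.125, 0.212 and −0.026 in total and 0.285, 0.179 and −0.219 in polysomal RNA. Blocks by replicate number or culture were therefore run as alternatives only, and the main fits used no block. Library totals of 24789280 to 44897501 counts leave counting error small beside the spread between cultures.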

Additional observations from a re-analysis of the deposited data

How the results depend on the processing

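The change of TE with HU in siLSM14A cells was above 0 for 10 of 10 members under every alternative run, in libraries that the rule used, so that this sign is no independent evidence. Genes called in that contrast ranged from 0 to 16 with single cultures left out (16 without siLSM14A NT 1), and 11 were called without that culture and with the GC correction, a combination chosen after seeing the data. In total RNA of siCTRL cells the count was 0, and 1 with DESeq2, 15 with the replicate block, 25 with block and GC correction, and 0 to 6 with single cultures left out (6 without siCTRL NT 1). In polysomal RNA it was 1 with the replicate block and 0 to 2 with single cultures left out (2 without siCTRL NT 1). Between the fractions in siCTRL NT cells 3654 to 8454 genes were called with single cultures left out, in place of 7927 (3654 without siCTRL NT 2).

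For TE in siCTRL cells, leaving out single cultures moved SEMA3C between −0.76 and 0.265, CCAR1 between −0.524 and 0.732, UFL1 between −0.753 and 0.228, TASOR2 between −0.689 and 0.405, MORC3 between −0.719 and 0.131, TOPORS between −0.715 and 0.237, SCAF11 between −0.232 and 0.714, U2SURP between −0.495 and 0.453, and RECQL between −0.597 and 0.311. FNDC3A stayed below 0. Without siCTRL NT 3 and with the GC correction, also chosen after seeing the data, SEMA3C was at 0.235, CCAR1 at 0.77, UFL1 at 0.211, TASOR2 at 0.411, MORC3 at 0.103, TOPORS at 0.234, U2SURP at 0.404 and RECQL at 0.277. The sign of CCAR1 also turned with the replicate block (0.05), the culture as a block (0.185), the GC correction (0.092) and both together (0.196). That of U2SURP turned with the culture as a block (0.009), the GC correction (0.105) and block and GC correction (0.126), and that of RECQL with the last (0.001). No member was called in any of these fits, and the cause of the turns was not tested.

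Between the fractions, RECQL turned in siCTRL NT cells with the GC correction (0.379), with block and GC correction (0.325) and over single cultures left out (−0.814 to 0.086). In siCTRL HU cells RECQL turned to 0.365 and 0.364 and SCAF11 to 0.24 and 0.228 with the GC correction without and with the block. Among the other alternatives with all cultures, members lost their call 8 times and gained it 8 times in siCTRL NT cells. In siCTRL HU cells 4 of the 10 stayed called lower with the GC correction (29.1% of all genes) and 7 with block and GC correction (29.7%). RECQL was called higher in both (27.8% and 27.4% of all genes). All 10 were called lower in the rest, beside 30.4% to 38.2% of all genes. The replicate block changed no other call of a member than those given here and in the report. Polysomal replicates differed by up to 2.32 on the log2 scale for a member, and this spread, more than the depth, limits what 3 cultures can show.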
